A study of Mus musculus with 4 samples.

Results

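A set of 10 symbols was chosen by name for their place in innate sensing of microbes and tissue damage, and every one found among the measured genes is described here. They are the Toll-like receptors Tlr2, Tlr4, Tlr7 and Tlr13, the lipopolysaccharide co-receptors Cd14 and Ly96, the adaptor Myd88, the amplifying receptor Trem1 and the C-type lectins Clec4e and Clec7a. Of these 10 symbols, 9 matched 1 gene each among the 32285 genes of the count matrices, and Clec7a was not analysed here. The study sequenced single CD45+ leukocytes from left lungs transplanted between B6 mice. The grafts were stored for 60 min at 4 °C and a further 45 min at 28 °C, a severe ischaemia-reperfusion injury, and were collected 2 h after transplantation. Treatment was an intravenous dose of resolvin D1 (RvD1, a pro-resolving lipid derived from the omega-3 fatty acid DHA), 200 ng for each mouse dissolved in a 200 µL volume of 1% ethanol, or the vehicle alone. The 4 groups, with 1 library each, are RvD1 recipient leukocytes, vehicle recipient leukocytes, RvD1 donor leukocytes and vehicle donor leukocytes.

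All 4 groups share the strain, the storage and the transplantation, and no uninjured lung is among them. Each library pooled grafts from 2 mice, so animals cannot be separated within a library. The sources used here give neither the age of the mice nor whether recipient and donor cells of one treatment were taken from the same grafts. The labels' protocol gives the recipient mice as treated, whereas the series text gives the grafts as treated. Since each group is 1 library, conditions could not be tested against the spread between replicates. Every comparison is between the named libraries, and its interval covers counting error only.

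Toll-like receptors bind conserved microbial molecules or material from damaged cells, at the cell surface (TLR2, TLR4) or inside endosomes (TLR7, TLR13), and most signal through the adaptor MYD88 to NF-kB. TLR4 recognises lipopolysaccharide only together with MD-2, the product of Ly96, while CD14 hands lipopolysaccharide to that pair and also serves TLR2. TREM1 amplifies Toll signalling in neutrophils and monocytes, and CLEC4E, also called Mincle, binds mycobacterial glycolipids and the nuclear protein SAP130 released by dying cells. In a reperfused lung, neutrophils and monocytes entering from the blood carry most of these receptors.

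The libraries held 7836 barcodes (RvD1 recipient), 5987 (vehicle recipient), 5195 (RvD1 donor) and 5743 (vehicle donor), and 42199775 to 61294707 UMIs, the counted molecules. After filters and removal of called doublets, 7345, 5829, 5024 and 5527 cells remained in that order, with median UMIs per cell between 5386 and 7905. Ptprc, the gene of CD45, was detected in 91.1%, 94.5%, 91.9% and 95.2% of barcodes, and a few clusters of endothelial cells (121, 33, 73 and 52 cells) remained. Between 4 and 15 barcodes were shared by any pair of libraries. Clusters were named from marker genes that held none of the genes described here, under a naming rule completed once the clusters were known. Neutrophils numbered 3050, 3338, 1915 and 1409, classical monocytes 294, 176, 784 and 597, and nonclassical monocytes 270, 112, 183 and 377, in the same order. All 8 neutrophil markers were present in the neutrophils of every library, and summed to 122964, 123819, 107589 and 69400.5 CPM, where CPM is the UMIs of a gene per 1000000 UMIs of a cell type in a library. Cell Ranger 7.0.1 made both RvD1 matrices and Cell Ranger 6.1.1 both vehicle matrices, per the file headers, so software version and treatment cannot be told apart in any ratio of RvD1 to vehicle. The later of these major versions counts intronic reads by default and the earlier one does not, and the sources used here do not give the setting. Ratios of recipient to donor lie within 1 version.

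Neutrophils carried the most Tlr2, Tlr4, Tlr13, Cd14, Trem1 and Clec4e of the 3 compared myeloid types in every library, whereas Tlr7 was highest in monocytes, and Ly96 and Myd88 lay closer together. Tlr2 (chr3:83836272-83841767, minus strand), the receptor for bacterial lipopeptides, ranged from 343 to 519 CPM over the libraries in neutrophils, 159 to 356 CPM in classical monocytes and 138 to 326 CPM in nonclassical monocytes. Neutrophils stood above both monocyte types within each library, although the ranges over libraries overlapped narrowly with those of classical monocytes, and the monocyte types overlapped. Tlr4 (chr4:66827584-66930284, plus strand), the signalling receptor for lipopolysaccharide, ranged from 338 to 819 CPM in neutrophils. Its range was 82.0 to 162 CPM in classical and 32.5 to 146 CPM in nonclassical monocytes, so neutrophils did not overlap with either. Lymphocytes (B, T and NK cells) held 1.47 to 7.39 CPM of Tlr2 and 0.701 to 25.3 CPM of Tlr4. All coordinates are of the mouse build GRCm38 (mm10) and GENCODE M21, and each gene is annotated as protein coding.

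The endosomal receptors split by cell type. Tlr7 (chrX:167304929-167330558, minus strand), which senses single-stranded RNA, reached 52.7 to 80.1 CPM in nonclassical and 53.9 to 69.0 CPM in classical monocytes, with overlapping ranges, and only 12.6 to 19.0 CPM in neutrophils. B cells, which use TLR7 in antibody responses, held 6.49 to 13.7 CPM, and their highest library lay within the range of the neutrophils. NK cells had 1 UMI of Tlr7 in each of 3 libraries and 0 in the vehicle recipient library. Tlr13 (chrX:106143204-106160493, plus strand), the mouse sensor of bacterial ribosomal RNA, ran the other way, with 129.5 to 175 CPM in neutrophils. Its range was 75.2 to 104 CPM in nonclassical and 74.7 to 83.8 CPM in classical monocytes. Tlr7 was therefore the one member of the 9 whose neutrophil level lay below both monocyte types in every library.

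Cd14 (chr18:36725067-36726798, minus strand), the surface carrier of lipopolysaccharide, ranged from 3062 to 4421 CPM in neutrophils. Classical monocytes held 1408 to 1781 CPM and nonclassical monocytes 433 to 873 CPM, and none of these 3 ranges overlapped. Ly96 (chr1:16688051-16709611, plus strand), which encodes the MD-2 subunit of the lipopolysaccharide receptor, had overlapping ranges of 35.3 to 124 CPM in neutrophils, 39.7 to 66.2 CPM in classical and 41.2 to 65.5 CPM in nonclassical monocytes. Myd88 (chr9:119335934-119341411, minus strand), the shared adaptor, was more even, at 86.5 to 108 CPM in neutrophils, 86.0 to 97.3 CPM in classical and 67.9 to 92.3 CPM in nonclassical monocytes, and at 9.69 to 20.7 CPM in lymphocytes. Its interval overlaps Slc22a14 on the same strand and Acaa1a on the opposite one, so reads of these genes could be shared. The amplifying receptor Trem1 (chr17:48232768-48246924, plus strand) was concentrated in neutrophils, with 1047 to 1418 CPM there, 181 to 310.3 CPM in nonclassical and 152 to 184 CPM in classical monocytes. Clec4e (chr6:123281789-123289870, minus strand), the receptor Mincle, ranged from 872 to 1201 CPM in neutrophils, 487 to 556 CPM in classical and 392 to 513 CPM in nonclassical monocytes.

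**Figure D1:**
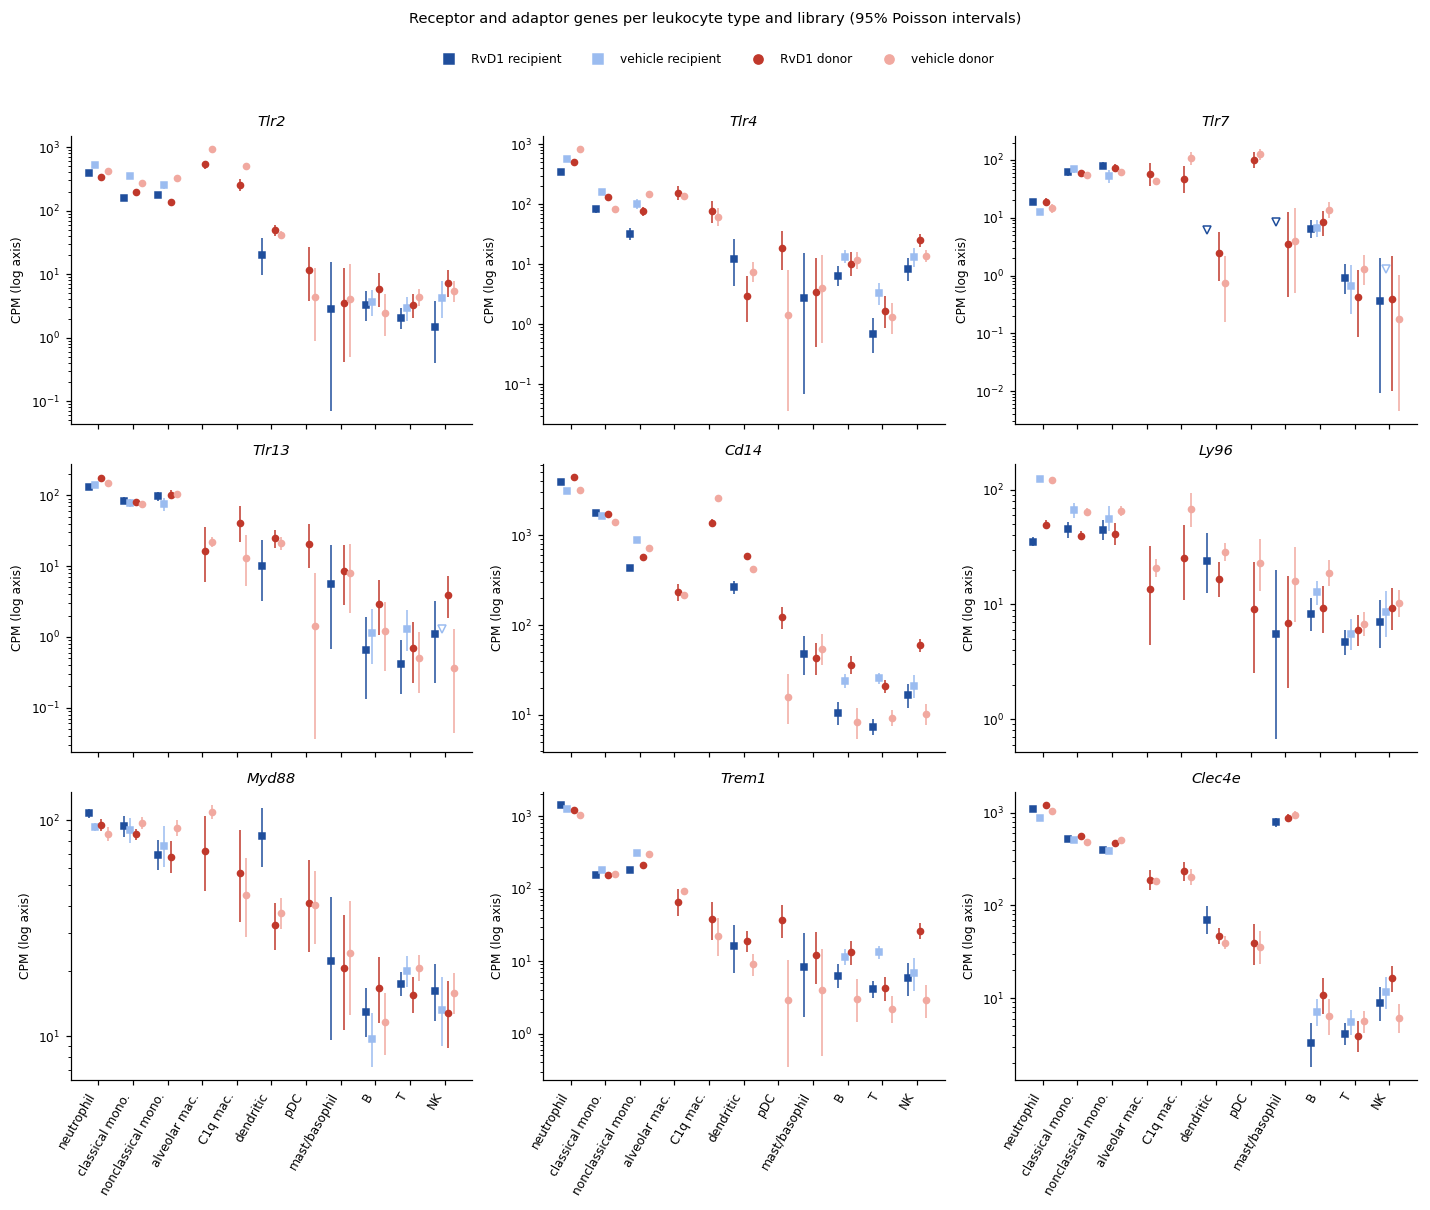
CPM of each of the 9 genes (log axis, 1 panel per gene) by leukocyte type, with blue squares for recipient and red circles for donor libraries, dark for RvD1 and pale for vehicle; bars are exact 95% Poisson intervals, and open triangles mark the level of 3 counts where a type of at least 20 cells had 0 UMIs. Neutrophils head the panels of Tlr4, Cd14, Trem1 and Clec4e, while Tlr7 sits at 12.6 to 19.0 CPM in neutrophils against 53.9 to 69.0 CPM in classical monocytes.

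Detection per cell was also read after every cell was thinned to 1000 UMIs. Cd14 was detected in 85.9% of RvD1 recipient, 83.2% of vehicle recipient, 88.9% of RvD1 donor and 85.3% of vehicle donor neutrophils. T cells, which should lack it, gave 0.880%, 1.75%, 1.33% and 0.626% in that order. Trem1 was detected in 70.2%, 66.5%, 64.4% and 62.5% of neutrophils, and Clec4e in 57.3%, 49.5%, 61.0% and 55.4%. Most neutrophils of each library thus carried Cd14 and Trem1 even at this shallow depth. Tlr13 had a UMI in 11.1% of thinned RvD1 recipient neutrophils. Without thinning it had one in 40.4% of these neutrophils, at a median of 4867 UMIs, and in 0.329% of RvD1 recipient T cells (6 of 1821), at a median of 7506 UMIs. Thinning left out between 4 and 36 neutrophils of a library as too shallow.

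The genes whose levels ran most like each member were found over 28 sums of a cell type in a library, as the correlation of log2(CPM + 1) among 5892 genes. These sums share libraries and cell types, so the values describe a pattern and carry no test. Clec4e ran most like Msrb1 (r = 0.99), and Tlr13 ran most like Gpr35 (0.98) and Clec4e itself (0.98). Trem1 ran most like C5ar1 (0.98), the receptor for complement C5a, and its r with Clec4e was 0.96 and with Tlr13 0.94. Cd14 ran most like Il1b (0.98), the interleukin-1 beta gene, and Tlr2 most like Sirpa (0.98). Tlr4 ran most like Cd300lf (0.95) and Tirap (0.95), the adaptor that bridges TLR4 to MYD88. Its r with the other members ran from 0.69 (Tlr7) to 0.91 (Trem1), with 0.87 for Ly96 and 0.80 for Myd88. Ly96 ran most like Skap2 (0.95), Myd88 most like App (0.96) and Tlr7 most like Ptpn1 (0.95). Tlr7 had r between 0.69 and 0.80 with the other members.

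The 250 bases before the start were read for the 5 members with an entry (Tlr2, Tlr13, Myd88, Trem1 and Clec4e), and 3 of these windows are shown because they hold the core GAGGAA bound by the myeloid factor PU.1 (capitals). They were picked by that core and not by their levels: Tlr2, whose window lacks it, had r of 0.96 with Clec4e and 0.95 with Tlr13. The starts used for the windows differ from those of the GENCODE intervals given above. By these intervals the windows of Tlr2 and Tlr13 reach into the gene, and that of Myd88 lies inside it. The sequences are from RefSeq (GRCm38.p6), read 5′ to 3′ on the strand of the gene: Clec4e at chr6:123289872-123290121, minus strand, Trem1 at chr17:48232489-48232738, plus strand and Tlr13 at chrX:106143025-106143274, plus strand.
Clec4e: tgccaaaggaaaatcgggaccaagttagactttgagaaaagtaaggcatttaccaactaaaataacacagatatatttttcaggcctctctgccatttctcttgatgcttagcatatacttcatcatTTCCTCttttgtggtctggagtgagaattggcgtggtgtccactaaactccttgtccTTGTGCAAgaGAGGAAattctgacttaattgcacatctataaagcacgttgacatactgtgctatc
Trem1: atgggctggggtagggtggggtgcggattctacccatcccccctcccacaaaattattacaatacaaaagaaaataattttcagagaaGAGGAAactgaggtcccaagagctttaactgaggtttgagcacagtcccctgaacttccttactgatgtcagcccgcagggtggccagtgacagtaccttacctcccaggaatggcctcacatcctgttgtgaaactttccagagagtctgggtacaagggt
Tlr13: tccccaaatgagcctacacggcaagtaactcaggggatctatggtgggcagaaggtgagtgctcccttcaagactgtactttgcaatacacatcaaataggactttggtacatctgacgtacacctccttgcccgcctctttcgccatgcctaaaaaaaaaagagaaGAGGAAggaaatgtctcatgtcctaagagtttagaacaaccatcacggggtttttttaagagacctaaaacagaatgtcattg
The core GAGGAA, on either strand, was found in 23.3% of 32851 windows of the same length, so its presence in all 3 is a description and not a site. In Clec4e it occurs on both strands. The remaining run in capitals matches the C/EBP motif TTGCNNAA on the strand opposite to the one printed. That motif is held by 9.56% of windows, and the runs do not overlap. The window of Myd88 lacks the core GAGGAA too. That of Tlr2 holds a match to the NF-kB motif, found in 3.9% of windows, and that of Myd88 one to the core of the interferon-stimulated response element (gaaagcgaaa), found in 2.98%. The AP-1 motif TGANTCA, in 6.75% of windows, was in none of these 5.

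The first comparison asked which members differed between RvD1 and vehicle, within cells of one type and one origin. In neutrophils the largest differences were in the lipopolysaccharide receptor. Ly96 and Tlr4 were lower with RvD1 in recipient and in donor cells alike, and Tlr2 was lower by less. As summed per type, Ly96 was also lower with RvD1 in each origin in the monocyte types and in B, T and NK cells. Cd14, Clec4e and Trem1 were slightly higher as summed over all neutrophils, Trem1 without a shared direction inside the neutrophil clusters. Ly96 had 35.3 CPM (538 UMIs) in RvD1 recipient and 124 CPM (2390 UMIs) in vehicle recipient neutrophils. In donor neutrophils it had 49.7 CPM (492 UMIs) with RvD1 and 122 CPM (977 UMIs) with vehicle. Both RvD1 libraries were thus below both vehicle libraries. The log2 ratio of RvD1 to vehicle was -1.82 (95% interval -1.95 to -1.68) in recipient and -1.30 (95% interval -1.45 to -1.14) in donor neutrophils. Thinned to 1000 UMIs, Ly96 was detected in 3.32% of RvD1 recipient, 10.5% of vehicle recipient, 4.62% of RvD1 donor and 11.4% of vehicle donor neutrophils, and in 0.364% to 0.938% of T cells. Without thinning the neutrophil shares were 12.7%, 39.4%, 17.7% and 39.0%.

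Tlr4 had 338 CPM in RvD1 recipient and 574 CPM in vehicle recipient neutrophils. In donor neutrophils it had 502 CPM with RvD1 and 819 CPM with vehicle. Both RvD1 libraries were again below both vehicle libraries, and within a treatment recipient cells were below donor cells. The log2 ratios were -0.77 (95% interval -0.81 to -0.72) in recipient and -0.70 (95% interval -0.76 to -0.65) in donor cells. A member was called when it was at least 1.5-fold different, in the same direction, in both origins, with at least 100 UMIs in each pair of libraries. By that rule 2 of 9 members, Ly96 and Tlr4, were lower in neutrophils, where 9.56% of 6452 genes were, and 0 of 9 were higher, where 4.94% were. The neutrophil clusters were unevenly filled: cluster 4 held 0.852% of RvD1 recipient, 30.1% of vehicle recipient, 4.18% of RvD1 donor and 47.0% of vehicle donor neutrophils. Without cluster 4 the Tlr4 ratios were -0.46 in recipient and -0.33 in donor cells, and with every cluster weighted equally they were -0.53 and -0.51, so that Tlr4 was no longer called. Ly96 stayed called, at -1.56 and -0.94 without cluster 4 and at -1.66 and -0.89 with equal weights. The equal weights include cluster 23, where RvD1 recipient cells held 1 UMI of Ly96.

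Both genes were also followed inside the 7 neutrophil clusters with at least 20 cells in every library. Ly96 was lower with RvD1 in 7 of 7 clusters in recipient cells, from -3.16 to -0.62 on the log2 scale, and in 7 of 7 in donor cells, from -2.33 to -0.20. The lowest recipient value, in cluster 23, rested on 1 UMI in 32 RvD1 cells against 17 UMIs in 48 vehicle cells. The lowest donor value, in cluster 14, rested on 10 UMIs with RvD1 against 80 with vehicle. The 95% interval left out 0 in 7 recipient and 5 donor clusters. In cluster 0, the most filled one in RvD1 recipient cells, Ly96 had 29.7 CPM in RvD1 recipient and 70.5 CPM in vehicle recipient cells, and 37.5 CPM in RvD1 donor and 64.9 CPM in vehicle donor cells. Tlr4 was lower in 7 of 7 clusters in each origin, by smaller steps, from -0.88 to -0.18 in recipient and from -0.89 to -0.14 in donor cells. In vehicle cells cluster 4 was among the clusters richest in Tlr4, with 825 CPM in recipient and 1018 CPM in donor cells. In RvD1 cells it had 511 CPM in recipient and 549 CPM in donor cells. Clusters 6 (614 and 677 CPM) and 14 (580 and 671 CPM) were above it there. Cluster 6 was filled the other way, with 17.5% of RvD1 recipient, 3.27% of vehicle recipient, 37.7% of RvD1 donor and 6.03% of vehicle donor neutrophils. Cluster 5 had less Tlr4, with 233, 336, 342 and 377 CPM in the same order. Tlr4 thus differed within clusters, and the clusters were also unevenly filled. How much each added to the pooled ratio was not tested, and neither can be told apart from software version. Because intronic reads could enter the RvD1 counts alone, the trend of the ratios on intron length was also subtracted. This, fitted over all described genes, left Ly96 at -1.94 and -1.31 and Tlr4 at -0.76 and -0.61 in recipient and donor neutrophils.

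**Figure D2:**
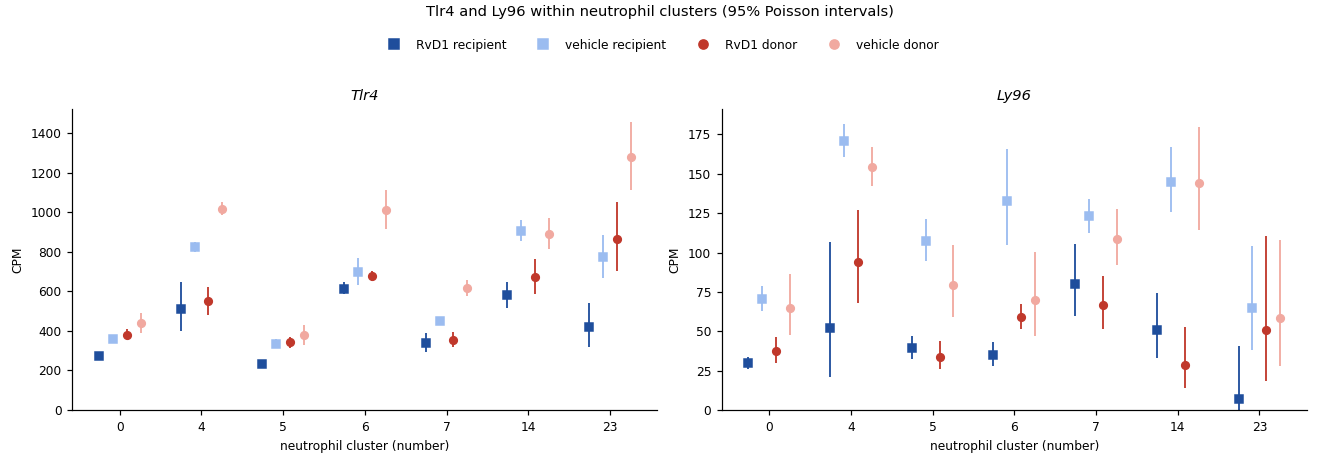
CPM of Tlr4 (left) and Ly96 (right) in 7 neutrophil clusters, named by number, with blue squares for recipient and red circles for donor libraries, dark for RvD1 and pale for vehicle; bars are exact 95% Poisson intervals. The RvD1 point lies below the vehicle point of the same origin in each cluster for both genes, and Tlr4 also differs between clusters, as between 336 CPM in cluster 5 and 825 CPM in cluster 4 of the vehicle recipient library.

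The remaining members moved less in neutrophils. Tlr2 had 387 CPM in RvD1 recipient and 519 CPM in vehicle recipient cells, and 343 CPM in RvD1 donor and 427 CPM in vehicle donor cells. Its log2 ratios were -0.42 (95% interval -0.47 to -0.38) and -0.32 (95% interval -0.38 to -0.25), under 1.5-fold, and it was lower in 7 of 7 clusters in each origin. Cd14, the co-receptor, ran the other way, with 3869.7 CPM in RvD1 recipient and 3062 CPM in vehicle recipient neutrophils. Donor neutrophils had 4421 CPM with RvD1 and 3195 CPM with vehicle. Both RvD1 libraries lay above both vehicle libraries, with log2 ratios of 0.34 in recipient and 0.47 in donor cells, and Cd14 was higher in 7 of 7 clusters in each origin. The median ratio of all described neutrophil genes was 0.12 in recipient and 0.02 in donor cells, and that of the 9 members 0.18 and 0.19. Clec4e was at 0.34 and 0.19, Trem1 at 0.18 and 0.24, and Myd88 at 0.21 and 0.14, all under 1.5-fold. Of the 7 clusters, Clec4e was higher with RvD1 in 6 in recipient and 5 in donor cells. Trem1 was higher in 4 and 3, and Myd88 in 4 and 1. The pooled signs of Trem1 and Myd88 were thus not shared by most donor clusters. Tlr7, with 289, 241, 185 and 116 UMIs in RvD1 recipient, vehicle recipient, RvD1 donor and vehicle donor neutrophils, was at 0.60 (95% interval 0.34 to 0.85) and 0.37 (95% interval 0.02 to 0.72). Tlr13 was at -0.09 in recipient and 0.20 in donor neutrophils.

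**Figure D3:**
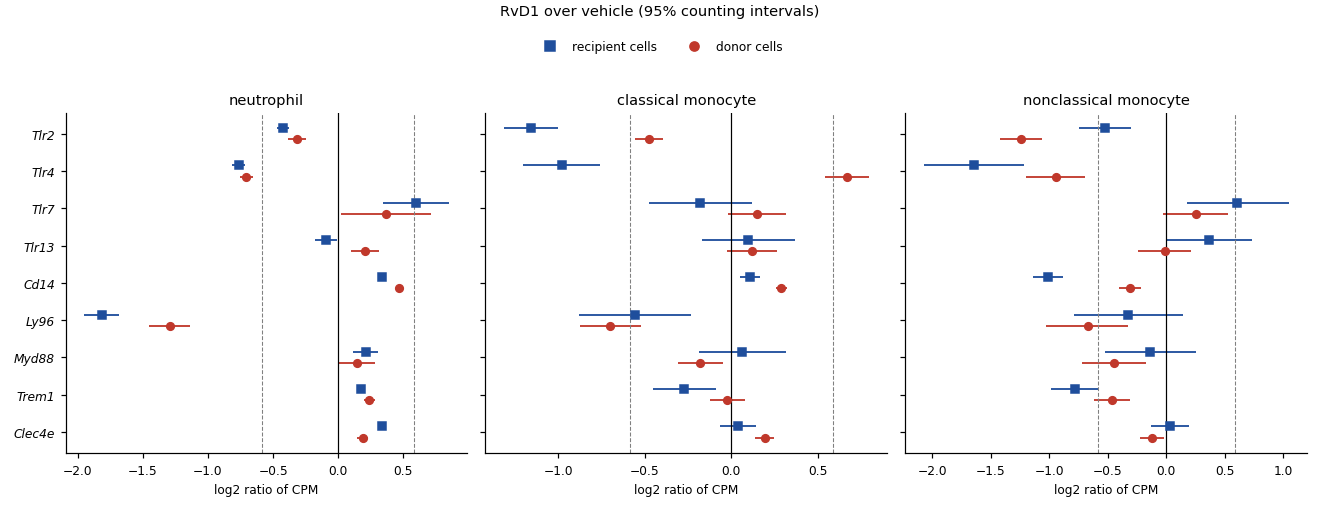
Log2 ratio of CPM, RvD1 over vehicle, for each of the 9 genes in neutrophils, classical monocytes and nonclassical monocytes, with blue squares for recipient cells, red circles for donor cells, bars for 95% counting intervals and dashed lines at 1.5-fold. In neutrophils only Ly96 and Tlr4 pass the lower line in both origins, whereas Tlr4 lies on opposite sides of 0 in classical monocytes, at -0.98 and 0.67.

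In classical monocytes the surface receptors Tlr2 and Tlr4 were both lower with RvD1 in recipient cells, but only Tlr2 was also lower in donor cells. Tlr2 had 159 CPM in RvD1 recipient and 356 CPM in vehicle recipient cells, with a log2 ratio of -1.16. It had 197 CPM in RvD1 donor and 274 CPM in vehicle donor cells, with a ratio of -0.48 (95% interval -0.56 to -0.40), under 1.5-fold. Both RvD1 libraries were below both vehicle libraries. Tlr4 had 82.0 CPM in RvD1 recipient and 162 CPM in vehicle recipient cells, a ratio of -0.98 (95% interval -1.20 to -0.76). In donor cells it had 132 CPM with RvD1 and 83.3 CPM with vehicle, a ratio of 0.67 (95% interval 0.54 to 0.79). The origins therefore pointed in opposite directions, and the 2 high libraries were vehicle recipient and RvD1 donor. Summed neutrophil markers in classical monocytes were highest in the same 2 libraries, at 1555 CPM (vehicle recipient) and 975 CPM (RvD1 donor), against 709 CPM (RvD1 recipient) and 335 CPM (vehicle donor), with none of the 8 at 0. Neutrophil RNA in proportion to those markers would make up at most 4.74% of the measured Tlr4, and with it subtracted the ratios were -0.95 and 0.69. Whether neutrophil RNA enters in that proportion, and its part in these Tlr4 levels, was not tested.

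By the rule for calls 0 of 9 members were lower in classical monocytes in both origins, where 2.69% of 5800 genes were, and 0 of 9 were higher, where 1.03% were. Ly96 came near it, with 45.1 CPM in RvD1 recipient and 66.2 CPM in vehicle recipient cells, and 39.7 CPM in RvD1 donor and 64.4 CPM in vehicle donor cells. Its log2 ratios of -0.55 (95% interval -0.88 to -0.23) and -0.70 (95% interval -0.88 to -0.52) fall just inside and just outside 1.5-fold. Cd14 was at 0.11 and 0.29, Clec4e at 0.04 and 0.19, and Trem1 at -0.27 and -0.02. Myd88, Tlr7 and Tlr13 lay between -0.18 and 0.15 in both origins.

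In nonclassical monocytes, the patrolling population, Tlr4 was the one member called: 1 of 9 was lower in both origins, where 4.71% of 4773 genes were, and 0 of 9 were higher, where 1.49% were. Tlr4 had 32.5 CPM (77 UMIs) in RvD1 recipient and 101 CPM (117 UMIs) in vehicle recipient cells. In donor cells it had 76.1 CPM (157 UMIs) with RvD1 and 146 CPM (859 UMIs) with vehicle. The log2 ratios were -1.64 (95% interval -2.07 to -1.21) and -0.94 (95% interval -1.20 to -0.70). Neutrophil markers moved with it, at 1113 CPM in RvD1 recipient and 11283 CPM in vehicle recipient cells, and at 3066 CPM in RvD1 donor and 5626 CPM in vehicle donor cells, with none of the 8 at 0. Neutrophil RNA in that proportion would make up 9.41%, 51.7%, 18.8% and 45.4% of the measured Tlr4, in the order RvD1 recipient, vehicle recipient, RvD1 donor and vehicle donor. With it subtracted the ratios were -0.71 and -0.38, and Tlr4 was no longer called. The part of neutrophil RNA in these levels was not tested either.

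Nonclassical monocytes were made up of cluster 11 and sub-cluster 16.1, which differed in Tlr4 and in neutrophil markers. In cluster 11, which held most cells of the type, Tlr4 had 27.3 CPM in RvD1 recipient and 35.0 CPM in vehicle recipient cells, and 41.4 CPM in RvD1 donor and 47.4 CPM in vehicle donor cells. Sub-cluster 16.1 had 233 CPM in 21 vehicle recipient cells and 286 CPM in 91 vehicle donor cells, and 3 RvD1 recipient and 15 RvD1 donor cells. The summed neutrophil markers were 32922 and 12425 CPM in these vehicle recipient and donor cells of 16.1, against 433 to 846 CPM in the libraries of cluster 11. Without 16.1, which left 91 vehicle recipient cells, under the minimum of 100, the donor ratio was -0.19, and the recipient libraries held fewer than 100 UMIs of Tlr4. Tlr2 had 175 CPM in RvD1 recipient and 252 CPM in vehicle recipient cells, a ratio of -0.53 (95% interval -0.75 to -0.31), and 138 CPM in RvD1 donor and 326 CPM in vehicle donor cells, a ratio of -1.24 (95% interval -1.42 to -1.06). Without sub-cluster 16.1, with the same 91 cells, the Tlr2 ratios were -0.27 in recipient and -1.39 in donor cells.

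Cd14 was lower with RvD1 in recipient nonclassical monocytes, with 433 CPM against 873 CPM with vehicle, a log2 ratio of -1.01. In donor cells it had 575 CPM with RvD1 and 713 CPM with vehicle, a ratio of -0.31. Without sub-cluster 16.1 the recipient ratio, now against 91 vehicle cells, was 0.01 and the donor ratio -0.23. Trem1 was at -0.78 and -0.46, Ly96 at -0.33 and -0.67, and Myd88 at -0.14 and -0.44 in recipient and donor cells. Without 16.1 Ly96 turned to 0.21 in recipient cells and was at -0.39 in donor cells, Trem1 was at -0.31 and -0.51, and Myd88 at -0.22 and -0.65. Tlr7 (0.60 and 0.25), Tlr13 (0.36 and -0.01) and Clec4e (0.03 and -0.12) were close to or above 0, and without 16.1 Clec4e was at 0.39 and 0.05. Dendritic cells could be compared in donor cells alone, where 6 members had enough UMIs. Ly96 was lower there, with 16.8 CPM with RvD1 and 28.8 CPM with vehicle, a ratio of -0.78 (95% interval -1.38 to -0.22), so that 1 of 6 was at least 1.5-fold lower, against 8.56% of all genes, and 0 of 6 were higher, against 4.68%.

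Lymphocytes held few UMIs of these genes. In B and NK cells Cd14 and the summed neutrophil markers were both highest in the RvD1 donor and vehicle recipient libraries. In T cells the markers were highest in vehicle recipient cells (884 CPM), as was Cd14. They were at 388 CPM in RvD1 recipient and 344 CPM in RvD1 donor T cells, where Cd14 had 7.36 and 21.0 CPM. In B cells Cd14 had 10.4 CPM in RvD1 recipient and 23.7 CPM in vehicle recipient cells, and 36.3 CPM in RvD1 donor and 8.24 CPM in vehicle donor cells. The neutrophil RNA implied by the summed neutrophil markers would give 9.23, 21.3, 77.3 and 3.72 CPM in that order. In NK cells the measured values were 16.5, 20.9, 59.5 and 10.3 CPM and the implied ones 19.1, 29.6, 65.6 and 5.24 CPM. In T cells they were 7.36, 25.5, 21.0 and 9.23 CPM against 12.2, 21.9, 14.1 and 6.56 CPM. In each of the 3 types the vehicle recipient and RvD1 donor libraries were the highest both as measured and as implied. The implied level ran from 45.2% of the measured one (vehicle donor B cells) to 213% of it (RvD1 donor B cells). Single cells weighed most in the same libraries: 1 cell held 32.0% of the Cd14 UMIs of vehicle recipient and 33.8% of those of RvD1 donor B cells, 22.2% and 27.3% in T cells, and 20.4% and 24.2% in NK cells. The part of neutrophil RNA in these levels was not tested. For Ly96, neutrophil RNA in the same proportion would make up at most 16.1% of its 4.70 to 18.9 CPM in lymphocytes. Ly96 was lower with RvD1 here too, with 8.22 against 12.7 CPM in recipient and 9.32 against 18.9 CPM in donor B cells. T cells had 4.70 against 5.52 and 6.01 against 6.82 CPM, and NK cells 6.97 against 8.53 and 9.33 against 10.3 CPM. The intervals of each of these pairs overlapped, and the donor B cells held 19 and 62 UMIs. Of the 71 Tlr4 UMIs in vehicle recipient B cells, 38.0% were in 1 cell. No member was called: 0 of 1 described in B cells (0.731% of genes higher, 1.41% lower), 0 of 3 in T cells (0.945% higher, 1.91% lower), and 0 of 0 in NK cells (0.927% higher, 1.4% lower), where no member had 100 UMIs in both pairs.

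**Figure D4:**
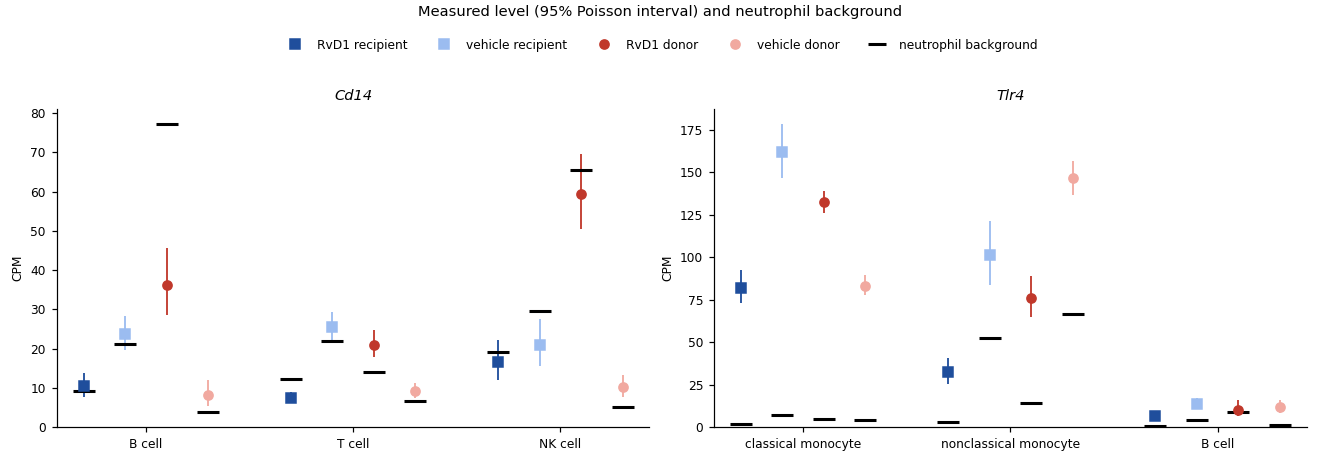
Measured CPM of Cd14 in B, T and NK cells (left) and of Tlr4 in both monocyte types and B cells (right), with exact 95% Poisson intervals, blue squares for recipient and red circles for donor libraries, dark for RvD1 and pale for vehicle, and black dashes for the level that neutrophil RNA would give. In lymphocytes the dashes are highest in the libraries where Cd14 is highest, although RvD1 donor B cells measured 36.3 CPM against a dash at 77.3 CPM, and they stay at or under 4.74% of Tlr4 in classical monocytes but reach 51.7% of it in vehicle recipient nonclassical monocytes.

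The second comparison set recipient leukocytes against donor leukocytes. In neutrophils 0 of 9 members were at least 1.5-fold lower with both treatments, where 3.58% of 6814 genes were, and 0 of 9 were higher, where 1.54% were. Tlr4 came closest in this type, at -0.57 (95% interval -0.63 to -0.52) with RvD1 and -0.51 (95% interval -0.56 to -0.47) with vehicle. Recipient cells were thus lower with each treatment, 338 against 502 CPM in donor cells with RvD1 and 574 against 819 CPM in donor cells with vehicle. It was lower in 7 of 7 clusters with RvD1 and in 6 of 7 with vehicle. Tlr2 was slightly higher in recipient neutrophils, at 0.17 and 0.28, as was Trem1, at 0.20 and 0.26, with RvD1 and vehicle. Ly96 was lower in recipient cells with RvD1, at -0.49 (95% interval -0.67 to -0.31), while with vehicle the interval of its ratio held 0, at 0.03 (95% interval -0.08 to 0.14). Inside the clusters, Ly96 in recipient cells was lower in 4 and higher in 3 of 7 with RvD1, and higher in 7 of 7 with vehicle. The 95% interval left out 0 in only 1 of these clusters with RvD1 and in 2 with vehicle. Tlr13 was at -0.43 and -0.13, Clec4e at -0.12 and -0.27, Cd14 at -0.19 and -0.06, Myd88 at 0.18 and 0.11, and Tlr7 at 0.02 and -0.21. The median of all described neutrophil genes was -0.02 with RvD1 and -0.13 with vehicle, and with TMM scaling the vehicle ratios of Tlr13 and Cd14 crossed to above 0.

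Among classical monocytes 0 of 9 members were called higher (0.243% of genes) or lower (0.741%) with both treatments. Tlr4 was lower in recipient than in donor cells with RvD1, at -0.69 (95% interval -0.88 to -0.50), and higher in recipient than in donor cells with vehicle, at 0.96 (95% interval 0.78 to 1.13). Tlr2 had the same pattern at a smaller size, at -0.31 with RvD1 and 0.38 with vehicle. These ratios use the same 4 libraries as those of RvD1 to vehicle and add no independent value. In nonclassical monocytes 0 of 9 were called higher (0.112%) or lower (0.524%), with Tlr4 at -1.23 and -0.53 and Tlr2 at 0.34 and -0.38. Without sub-cluster 16.1 the Tlr4 ratios were -0.60 with RvD1 and -0.43 with vehicle, and over all alternatives the vehicle ratio ran from -0.72 to 0.32, across 0. Neutrophil markers in these cells were at 1113 CPM in RvD1 recipient against 3066 CPM in RvD1 donor cells, and at 11283 CPM in vehicle recipient against 5626 CPM in vehicle donor cells, and their part was not tested. In lymphocytes 0 members were called in B cells (0.212% of genes higher, 0.816% lower), T cells (1.36%, 11.4%) and NK cells (0.0159%, 0.0955%). Over all types, 32 pairs of member and type could be described and 0 were called lower (3.38% of all gene and type pairs) or higher (0.641%). For RvD1 to vehicle 31 pairs could be described, of which 3 were lower, where 3.51% of all gene and type pairs were, and 0 were higher, where 1.67% were.

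**Figure D5:**
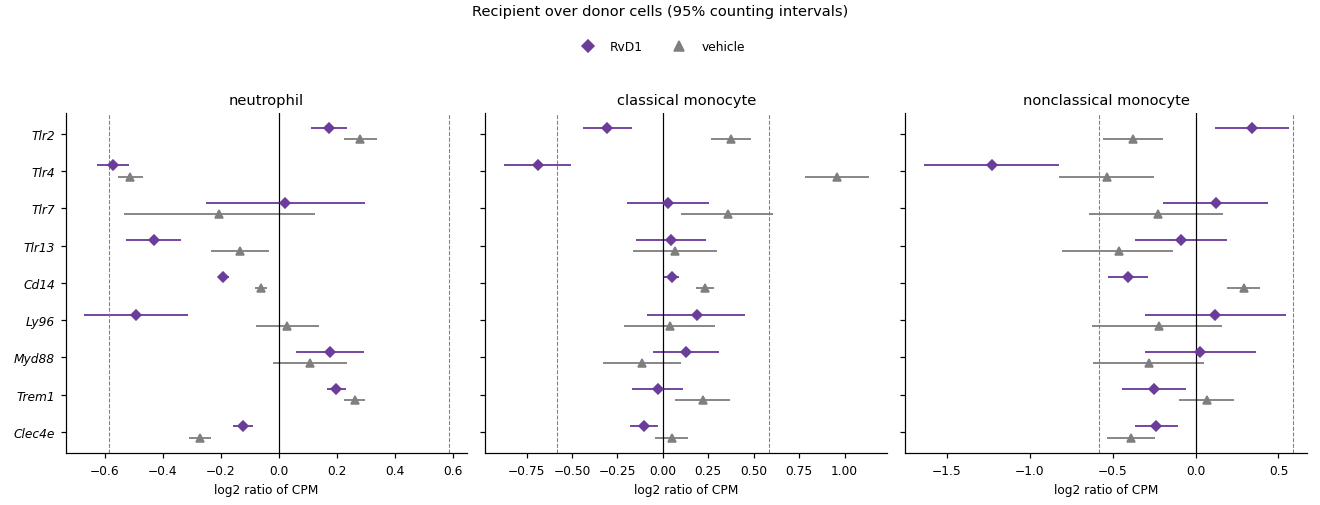
Log2 ratio of CPM, recipient over donor cells, for each of the 9 genes in neutrophils, classical monocytes and nonclassical monocytes, with purple diamonds for RvD1, grey triangles for vehicle, bars for 95% counting intervals and dashed lines at 1.5-fold. No gene passes a dashed line on the same side with both treatments, although Tlr4 lies below 0 with both in neutrophils, at -0.57 and -0.51, and in nonclassical monocytes, at -1.23 and -0.53, where it becomes -0.60 and -0.43 without sub-cluster 16.1.

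Other genes of the pathway were read from 6 lists (other Toll-like receptors, Toll adaptors and kinases, chaperones and cofactors, lectin and TREM signalling, cytosolic sensors, and brakes on Toll signalling). In neutrophils 51 of them were described, of which 3 were called lower with RvD1 (9.56% of all genes) and 2 higher (4.94%), both smaller shares than among all genes. Tlr6, which pairs with TLR2 to bind diacylated lipopeptides, had 70.7 CPM in RvD1 recipient and 132 CPM in vehicle recipient cells, and 81.6 CPM in RvD1 donor and 193 CPM in vehicle donor cells. Its log2 ratios were -0.90 and -1.24, lower than those of Tlr2. Aim2, a sensor of cytosolic DNA, was at -1.01 and -0.84, and Socs1, a brake on cytokine and Toll signalling, at -0.75 and -1.18. The 2 higher ones, named after their values were seen, were Irf3, a transcription factor of the interferon response, at 0.76 and 0.70, and Map3k7, the kinase TAK1 downstream of MYD88, at 0.60 and 0.68. In classical monocytes 54 were described, 3 lower (2.69% of all genes) and 0 higher (1.03%): Treml2, a TREM family receptor (-1.02 and -0.95), Ifih1, the RNA sensor MDA5 (-0.68 and -0.87), and Tlr8 (-0.95 and -0.66). In nonclassical monocytes 44 were described, 6 lower (4.71% of all genes) and 0 higher (1.49%). The 3 with the largest ratios were the lectin Clec4d, a partner of CLEC4E (-1.73 and -1.13), the peptidoglycan sensor Nod2 (-0.80 and -1.53) and Irak3, which restrains MYD88 signalling (-0.94 and -0.80), each in recipient and then donor cells. Neutrophil markers moved with the nonclassical libraries, as given for Tlr4, and their part in these 6 was not tested.

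Between recipient and donor cells, 1 of 53 pathway genes was called higher (1.54% of all genes) and 1 lower (3.58%) in neutrophils. Card9, the adaptor of lectin receptors, was higher in recipient cells, at 0.98 and 0.78 with RvD1 and vehicle, with 8.60 and 5.99 CPM in recipient and 4.35 and 3.50 CPM in donor cells. Clec4n, the lectin Dectin-2, was lower, at -0.90 and -0.81. Clec4n was also lower in recipient nonclassical monocytes, at -1.19 and -0.80, where Irf7, the transcription factor downstream of TLR7, was higher, at 0.60 and 0.59. There 1 of 46 was called in each direction (0.112% of all genes higher, 0.524% lower). In classical monocytes 2 of 60 were called higher (0.243% of all genes) and 0 lower (0.741%), Zbp1, a sensor of Z-form nucleic acid, at 0.90 and 0.94, and Treml2, at 0.80 and 0.88. Most calls were in T cells, with 3 of 42 higher (1.36% of all genes) and 7 lower (11.4%). Among them Treml2 was higher, at 2.01 and 1.04, and Irak3 and the chaperone of endosomal Toll-like receptors, Unc93b1, were lower, at -2.91 and -1.43 and at -1.45 and -1.08.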

How the data were processed

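The deposited count matrices hold whole-number UMI counts per gene and barcode, written by Cell Ranger, per the file headers, which give version 7.0.1 in the RvD1 matrices and 6.1.1 in the vehicle matrices. The genome build mm10 and Seurat 4.0.0 are from the submitters' processing notes. Barcodes under 200 genes or over 10% mitochondrial UMIs were left out. Scrublet was run on each library (scanpy 1.11.5), at an expected doublet rate of 0.8% per 1000 cells, and 278, 89, 68 and 131 called doublets were removed in RvD1 recipient, vehicle recipient, RvD1 donor and vehicle donor cells. The 4 libraries were clustered together on 2000 variable genes per library, without the genes described here or their pathway, with 30 principal components, 15 neighbours and Leiden resolution 1 (leidenalg 0.10.2). Clusters of mixed markers were split again with 20 components at resolution 0.5. A cluster took the name of a marker set with at least 3 markers in at least 10% of its cells, where no other lineage reached 70% of its score, and plasma cells were counted with B cells. The naming rule was completed once the clusters were known.

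Raw counts were summed per type and library and divided by the summed UMIs to give CPM, with exact Poisson intervals (95%), and ratios took exact binomial intervals. Shares of cells with a UMI have exact Clopper-Pearson intervals after thinning each cell to 1000 UMIs. UMIs were read as molecules, and all intervals and floors (3 counts) cover counting error only. Ratios needed at least 100 cells per library and 100 UMIs over both libraries (except without sub-cluster 16.1, where 91 vehicle recipient cells were used), and a call needed 1.5-fold in both origins (or with both treatments). No test was made, since each group is 1 library. The neutrophil background of another type is the neutrophil level of a gene times the ratio of summed neutrophil markers in that type to those in neutrophils of the same library. Every one of the 10 chosen symbols that was measured is described. Of the pathway lists, up to 3 genes per type were named, those with the largest smaller absolute log2 ratio among the called. For each member the 3 most alike genes (mean CPM of at least 20) were found by Pearson correlation, and 1 or more of them are named. Members and lists were chosen with earlier results of these data known. Python 3.11.15 was used with numpy 2.4.6, scipy 1.17.1, pandas 2.3.3, and edgeR 4.0.16 in R 4.3.3 for TMM factors. The ratios, intervals and calls were checked on simulated neutrophil counts, which held counting error and no spread between animals.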

Additional observations from a re-analysis of the deposited data

Results flagged for a closer look

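A number of ratios pointed in opposite directions in a pair of contrasts, and no difference between them was tested, since each contrast holds 1 library per group. For RvD1 over vehicle, Tlr4 in classical monocytes was at -0.98 in recipient and 0.67 in donor cells, a difference of 1.65 (donor less recipient, log2). Tlr13 in neutrophils was at -0.09 in recipient and 0.20 in donor cells, a difference of 0.30. Cd14 in B cells was at -1.19 in recipient and 2.14 in donor cells, a difference of 3.33, and in T cells at -1.79 and 1.18, a difference of 2.98.

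For recipient over donor, the same 4 libraries gave Tlr4 in classical monocytes at -0.69 with RvD1 and 0.96 with vehicle, a difference of -1.65 (RvD1 less vehicle, log2). Tlr2 in classical monocytes was at -0.31 with RvD1 and 0.38 with vehicle, a difference of -0.68, and in nonclassical monocytes at 0.34 and -0.38, a difference of 0.71. Cd14 in nonclassical monocytes was at -0.41 with RvD1 and 0.29 with vehicle, a difference of -0.70. Cd14 in B cells was at -1.81 with RvD1 and 1.53 with vehicle, a difference of -3.33. In T cells it was at -1.51 and 1.47, a difference of -2.98, and in NK cells at -1.85 and 1.03, a difference of -2.88. Summed neutrophil markers in B cells were 293 CPM in RvD1 recipient, 860.3 CPM in vehicle recipient, 1881 CPM in RvD1 donor and 80.9 CPM in vehicle donor cells, and their part in the Cd14 ratios was not tested.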

How the results depend on the processing

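With 1 library per group, no interval covers the difference between animals, and genes under 100 UMIs over a pair of libraries were not compared. Ly96 in neutrophils kept its call (1.5-fold lower with RvD1, in recipient and in donor cells) under all 16 alternatives that apply to neutrophils, from -1.94 to -1.56 in recipient and from -1.33 to -0.89 in donor cells. Tlr4 in neutrophils stayed so under 14 of 16 (recipient -0.88 to -0.46, donor -0.80 to -0.33), the exceptions being the removal of cluster 4 and equal weights per cluster. Tlr4 in nonclassical monocytes stayed so under 14 of 17. It was lost without sub-cluster 16.1 and with the neutrophil background subtracted, and with a minimum of 200 UMIs the recipient pair (77 and 117 UMIs) fell out with its ratio unmoved at -1.64. The alternatives for cluster 4, equal weights, sub-cluster 16.1, all of cluster 16 and the background were chosen after seeing the data. Against 3 pairs of member and type called lower with RvD1, there were 6 with doublets kept, and 5 with the members and their pathway kept for clustering, with Leiden resolution 2, with a mitochondrial maximum of 5%, with the intron trend subtracted and with all of cluster 16 taken in. The added calls were Ly96, Tlr2, Cd14 or Trem1 in nonclassical monocytes and, with the intron trend, Tlr2 in classical monocytes too. For recipient over donor, 1 pair was called lower in place of 0 with Leiden resolution 2 (Tlr4 in neutrophils), with the top cell of each gene left out and with the background subtracted (Tlr4 in nonclassical monocytes in both). With doublets kept, ratios in T cells reversed: RvD1 over vehicle in recipient cells was 1.19 for Trem1 and 0.49 for Cd14, and recipient over donor with vehicle was -0.60 for Trem1 and -0.47 for Cd14. Cd14 in recipient nonclassical monocytes reversed to 0.014 without sub-cluster 16.1 (91 vehicle recipient cells). The causes were not tested. Of 1789 ratios recomputed under alternatives other than UMI minimums, 1533 moved by less than their counting interval, 251 moved further and 5 reversed. Scaling and UMI minimums do not bear on a level in 1 library. No paired analysis was possible because each group has 1 library and the labels give no replicate numbers that groups share.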

Other observations

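Some leukocyte types were too few for a ratio in both origins but showed distinct levels. Alveolar macrophages, nearly all from donor libraries, had 535 CPM of Tlr2 in 40 RvD1 donor and 922 CPM in 221 vehicle donor cells, above the neutrophils of either library. Their Cd14 was at 234 and 215 CPM, below every neutrophil and classical monocyte value, and their Trem1 at 66.1 and 91.5 CPM. The RvD1 donor alveolar macrophages were shallower, at a median of 3281 UMIs against 28797 in vehicle donor ones. Their summed neutrophil markers were at 1954 CPM against 301 CPM, and the part of neutrophil RNA in these levels was not tested. Macrophages that carry C1q had 1372 CPM of Cd14 in 23 RvD1 donor and 2587 CPM in 41 vehicle donor cells, and 47.4 and 107 CPM of Tlr7.

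Plasmacytoid dendritic cells, which use TLR7 to sense viral RNA, had 101 CPM of Tlr7 in 30 RvD1 donor and 127 CPM in 39 vehicle donor cells, above both monocyte types of either library. The cluster of mast cells or basophils had 793 CPM of Clec4e in 67 RvD1 recipient cells, 889 CPM in 86 RvD1 donor cells and 956 CPM in 69 vehicle donor cells. Its Tlr2 was at 1, 2 and 2 UMIs in those 3 libraries. High Clec4e together with so few UMIs of Tlr2 set this cluster apart from neutrophils, whose Tlr2 ranged from 343 to 519 CPM.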
